A study of Mus musculus with 12 samples.

Results

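The clustered protocadherins are cell-surface adhesion proteins of the cadherin superfamily, encoded side by side in an alpha, a beta and a gamma cluster. They were taken by name, as every row of the count table whose symbol names an alpha, beta or gamma protocadherin. The rule uses no measured value, but this family was chosen with earlier results of these data known. The rule found 58 of 35976 rows: 14 alpha, 22 beta and 22 gamma genes. On mouse chromosome 18 (build mm10, which is GRCm38) RefSeq places the alpha genes at 36930285 to 37188897, the beta genes at 37264998 to 37521419 and the gamma genes at 37661775 to 37841873. They span 912 kb together. They are read on the plus strand, apart from Pcdha10, for which no strand was available.

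Each alpha and gamma gene has its own promoter and its own large first exon, which encodes the adhesive part of the protein. That exon is spliced to 3 constant exons at the end of the cluster, which encode the common cytoplasmic tail, while beta genes stand alone. In neurons each cell uses a limited and partly random choice of these promoters, and like proteins bind like proteins between membranes, so that a neuron can tell its own branches from those of others. The choice depends on CTCF and cohesin, which fold promoters to distant enhancers, and on promoter methylation laid down in the early embryo by Dnmt3b, and Smchd1 also holds the clusters silent. The C-type genes (Pcdhac1, Pcdhac2, Pcdhgc3, Pcdhgc4 and Pcdhgc5) differ in sequence from the rest and are used more evenly from cell to cell. TET enzymes, which the study altered, oxidise methylated cytosine.

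The study sequenced total RNA, with paired ends, from V6.5 mouse embryonic stem cells kept on gelatin with serum, LIF and inhibitors of GSK3 and MEK. All 12 libraries carry a Tet1 knockout by their labels, so no group has intact Tet1. There were 4 groups of 3 libraries lettered A, B and C: Tet1KO (Tet1 knockout alone), DKO (knockout of Tet1 and Tet2, numbered 41) and 2 sets with Tet2 N1300T on the Tet1 knockout, numbered 49 and 81. The numbers are not explained in the sources used here. Each numbered set is called a preparation below, and N1300T without a number is the mean of both. The labels do not say whether the 3 libraries of a group are separate cultures, and p-values here reflect only how far these libraries spread, which may be technical. With a single set of cells for Tet1KO and for DKO, genotype cannot be told apart from other properties of those cells.

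Libraries held 31515011 to 57054862 counts. Levels are CPM, a gene's counts scaled to a common library total with TMM factors, and log2 fold changes carry their standard error (SE). A gene counted as called when edgeR's quasi-likelihood test, with Benjamini-Hochberg adjustment over the 16014 genes that passed a filter on low counts, gave an adjusted p under 0.05. The 3 comparisons between genotypes share libraries, so they are not independent of each other. Tet2 transcript fell in DKO (log2 fold change -0.76 ± 0.09 against Tet1KO, adjusted p 1.43e-05). In N1300T Tet2 averaged 138.5 CPM, against 160.4 CPM in Tet1KO, which was not called (-0.21 ± 0.07, adjusted p 0.0591). It was higher in N1300T than in DKO (0.55 ± 0.08, adjusted p 4.72e-04). Tet1 was counted in every group and not called (0.19 ± 0.10 in DKO, adjusted p 0.205), and counts over a whole gene do not check a short deletion or a single codon.

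Almost all clustered protocadherin RNA in these cells came from the gamma cluster. Over the 12 libraries the gamma genes held 30359 counts, 97.9% of those of all members, against 529 counts (1.71%) for the beta and 127 counts (0.41%) for the alpha genes. Every gamma gene had counts in some library, and 21 of 22 passed the filter, all but Pcdhga6. Of the beta genes 2 of 22 passed (Pcdhb17 and Pcdhb22), and of the alpha genes none of 14. Thus 23 members could be tested and 35 could not.

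The alpha genes were close to or below what the depth can show. Pcdha4, Pcdha6, Pcdha7, Pcdha8 and Pcdha11 were at 0 in all 12 libraries. For Pcdha8 and Pcdha11, 3 counts per library allow a level of up to 0.0516 to 0.0949 CPM, for counting error only. If both mates of a read pair were counted, the level allowed is higher. The highest was Pcdhac2, a C type, with 57 counts in 8 libraries, followed by Pcdha12 with 23 counts in 8 libraries and Pcdha1 with 10 counts in 4 libraries. Pcdhac1, the other alpha C type, had 6 counts in 2 libraries. The summed alpha level was 0.124, 0.215 and 0.190 CPM in Tet1KO and 0.172, 0.535 and 0.158 CPM in DKO. It was 0.305, 0.379 and 0.285 CPM in N1300T 49 and 0.0197, 0.188 and 0.352 CPM in N1300T 81. The groups overlapped, apart from N1300T 49 and Tet1KO, and DKO B alone set the DKO mean above that of Tet1KO.

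Several predicted read-through genes run from an alpha first exon to the gamma constant exons: Gm37013 from Pcdha4, Gm38666 from Pcdha6 and Gm38667 from Pcdha7. Each has its own row among the counts, and the alpha genes whose first exons they overlap were at 0 in every library. Reads in such overlaps may not have been credited to either gene, and Pcdha4 has only 494 bp of exon shared with no other gene of its strand, so no upper level is given for those 3 alpha genes.

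The beta genes were scarcely higher. Pcdhb10 and Pcdhb15 were at 0 everywhere, and Pcdhb22 was the most abundant with 192 counts, then Pcdhb17 with 95 and Pcdhb14 with 40. Pcdhb22, which ends the cluster, stood at 0.434, 0.526 and 0.522 CPM in Tet1KO and at 0.413, 0.584 and 0.210 CPM in DKO. In N1300T it lay between 0.150 and 0.396 CPM, under every Tet1KO library, with a log2 difference of -0.81 ± 0.38 that was not called (adjusted p 0.159). Pcdhb17 ranged from 0.0478 to 0.434 CPM within Tet1KO alone, and its log2 difference of -1.43 ± 0.61 in N1300T was not called either (adjusted p 0.124). Of 12 fits that left out a library, only that without Tet1KO B, the lowest of its group, called Pcdhb17 (-1.96, adjusted p 0.0242). Its counts were 14, 2 and 18 in Tet1KO and 1 to 10 in N1300T. The summed beta level was 1.20 ± 0.199 CPM in Tet1KO, 1.03 ± 0.278 in DKO, 0.969 ± 0.244 in N1300T 49 and 0.826 ± 0.186 in N1300T 81 (SD, n = 3). The libraries overlapped between all groups other than Tet1KO (1.05 to 1.42 CPM) and N1300T 81 (0.639 to 1.01 CPM).

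Within the gamma cluster a single gene, Pcdhgc3, gave more than the others together. Its level was 27.97, 32.6 and 33.0 CPM in Tet1KO, 36.2, 35.5 and 38.1 in DKO, 25.6, 30.8 and 31.6 in N1300T 49 and 32.9, 29.0 and 33.9 in N1300T 81. That was 51.8% to 63.4% of the gamma counts of a library. Per kb of its own exon sequence it stood at 9.54 CPM, 7.56 times the next gene, Pcdhga11, at 1.26 CPM per kb, with Pcdhgb7 at 1.16. The next 16 gamma genes lay between 0.1 and 0.6 CPM per kb, and Pcdhgb1, Pcdhgb4 and Pcdhga6 lay under 0.1. The other C types were low, with mean levels per kb of 0.142 CPM for Pcdhgc4 and 0.183 CPM for Pcdhgc5.

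**Figure D1:**
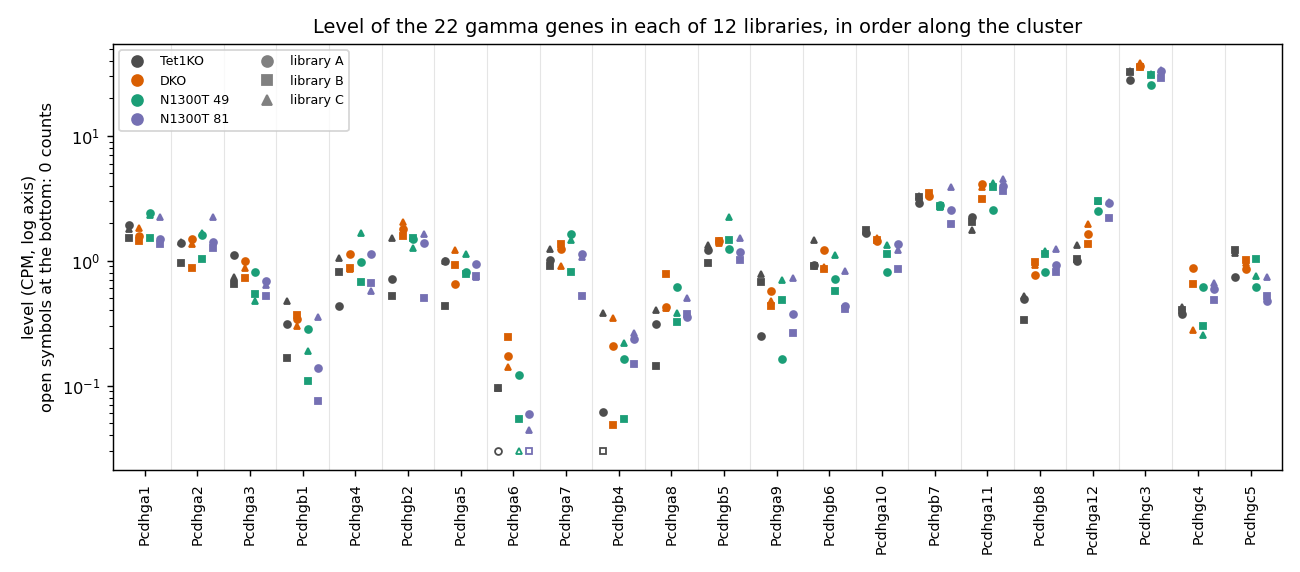
Level in CPM (log axis) of each of the 22 gamma genes in each library, in order along the cluster. Colours are groups, symbol shapes are library letters, and open symbols at the bottom are libraries with 0 counts. Pcdhgc3 lies above all others in every library, and Pcdhga6 is at 0 in 3 libraries.

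How reads were divided among gamma genes bears on these levels. All 22 share the 3 constant exons of 59, 89 and 1968 bp, yet Pcdhga6 was at 0 in 3 libraries in which Pcdhgc3 had at least 902 counts, so reads in the shared exons were not credited to every gene. First exons are also alike: 39.5% of the 50-base words of Pcdhga4's first exon recur in another member's transcripts, 16.8% of Pcdhgb1's, 9.18% of Pcdhgb8's, 0.273% of Pcdhga10's and 0% of those of Pcdhga11, Pcdhga12 and Pcdhgc3. The share was 16.5% for Pcdhgb2, 11.9% for Pcdhgb6 and 10.4% for Pcdhgb4. Reads of Pcdhga4, Pcdhgb1, Pcdhgb2, Pcdhgb4, Pcdhgb6 and Pcdhgb8 are thus uncertain to that extent. The antisense gene Gm26672 covers 100% of Pcdhga10's own exon length, 52.4% of Pcdhga11's, 29.7% of Pcdhgb7's, 9.3% of Pcdhga12's and none of Pcdhgb8's, and BC037039 covers 46.1% of Pcdhgc3's. Whether counting used strand is not given, so RNA of these genes and their antisense partners cannot be told apart, and the antisense genes were not analysed here.

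The summed level was highest in DKO. The gamma genes together stood at 48.06, 51.4 and 56.9 CPM in Tet1KO and at 62.4, 59.5 and 64.02 in DKO, with no overlap. They stood at 49.4, 54.02 and 59.9 CPM in N1300T 49 and at 56.5, 47.3 and 62.5 in N1300T 81, which overlapped both other groups. The log2 ratio of mean gamma levels was 0.25 for DKO against Tet1KO, 0.08 for N1300T against Tet1KO, -0.17 for N1300T against DKO and -0.03 for 49 against 81. All members together gave 53.5 ± 4.67 CPM in Tet1KO, 63.3 ± 1.80 in DKO, 55.7 ± 5.48 in N1300T 49 and 56.5 ± 7.87 in N1300T 81 (SD, n = 3). The C types, mostly Pcdhgc3, were lower in all 6 N1300T libraries (26.8 to 35.3 CPM) than in all 3 of DKO (37.2 to 39.3 CPM). The A and B types did not follow that order, with means of 19.5 ± 2.61 CPM in Tet1KO, 23.9 ± 1.30 in DKO, 23.9 ± 2.93 in N1300T 49 and 22.4 ± 4.93 in N1300T 81. These sums get no test, and in bulk RNA fewer expressing cells and less RNA per cell cannot be told apart.

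**Figure D2:**
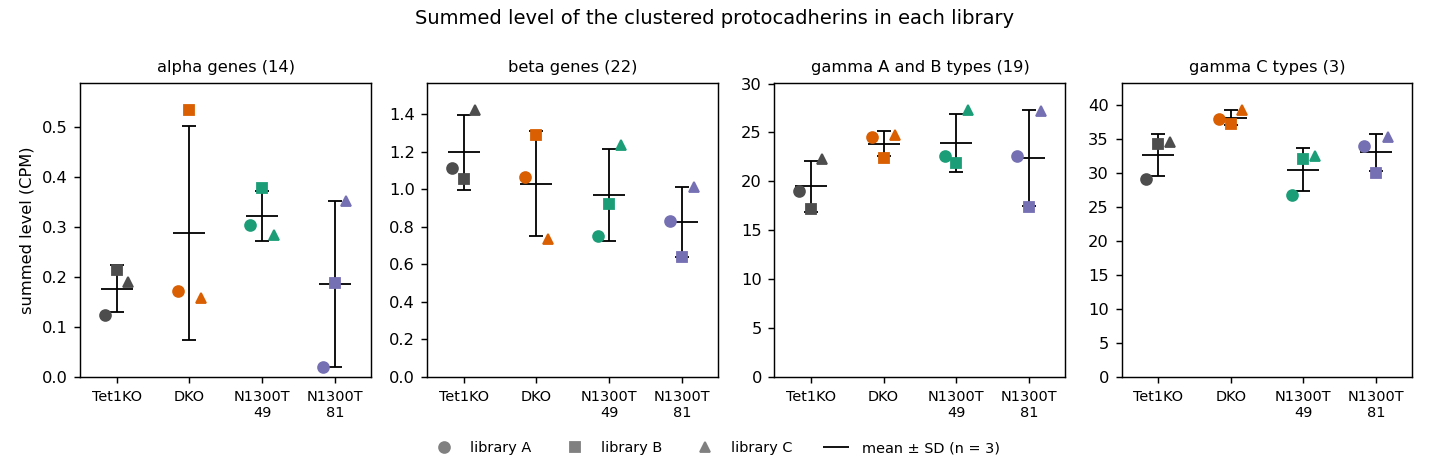
Summed level in CPM of the alpha, beta, gamma A and B, and gamma C genes in each library, by group, with the mean and SD of 3 libraries. Alpha and beta sums are a small fraction of the gamma sums, and the C types of DKO lie above those of every other library.

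The comparison of DKO with Tet1KO asks what the further loss of Tet2 goes with. Pcdhga11 and Pcdhgb8, neighbours in the gamma cluster, were called as higher in DKO and no member was called as lower. Of the 23 members tested 2 were called, 8.70%, where 15.0% of all genes tested were called (7.86% higher and 7.12% lower). The share of members called was thus below that background. The median log2 fold change of the members was 0.14, against -0.01 over all genes, and 16 of 23 were above 0 (49.1% of all genes were). Unadjusted p in this test was under 0.05 for 5 of 23 members and for 4670 of 16014 genes.

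Pcdhga11, a gamma A type (18:37755773-37841873), stood at 2.23, 2.06 and 1.76 CPM in Tet1KO and at 4.11, 3.14 and 3.88 CPM in DKO. The lowest DKO library was above the highest of Tet1KO. The log2 fold change was 0.89 ± 0.19 (adjusted p 0.00430). Pcdhgb8 (18:37761801-37840489), which RefSeq lists as a transcribed pseudogene, stood at 0.496, 0.335 and 0.522 CPM in Tet1KO and at 0.774, 0.973 and 0.930 CPM in DKO. Its libraries did not overlap either, and the log2 fold change was 0.98 ± 0.30 (adjusted p 0.0339). That call was lost without Tet1KO A, without Tet1KO B or without any of the DKO libraries (adjusted p 0.0561 to 0.129), while Pcdhga11 was called in all 20 alternatives.

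Other gamma genes were higher in DKO without being called. Pcdhgb2, a B type, stood at 0.713, 0.526 and 1.52 CPM in Tet1KO and at 1.79, 1.58 and 2.04 CPM in DKO (0.96 ± 0.37, adjusted p 0.0921). Pcdhga12 stood at 0.992, 1.03 and 1.33 CPM in Tet1KO and at 1.63, 1.36 and 1.96 CPM in DKO (0.57 ± 0.21, adjusted p 0.0814). Pcdhgc3 differed by 0.23 ± 0.09 (adjusted p 0.0974) with no overlap between libraries. Pcdhga10 went the other way without being called (-0.22 ± 0.22, adjusted p 0.566). It stood at 1.43, 1.46 and 1.53 CPM in DKO, under all Tet1KO libraries (1.67 to 1.77 CPM). Where only Tet1KO and DKO were fitted, both Pcdhgb2 and Pcdhgc3 were called (adjusted p 0.0436 and 0.0446), as they were with the replicate letter as a block (0.0240 and 0.0408). These fits called 2893 and 3281 of all genes, against 2399 in the main fit. Same-lettered libraries of DKO and Tet1KO did not deviate together (correlations -0.012, 0.037 and -0.0046 for A, B and C). A block by letter is thus not backed by the data for this pair. Pcdhgb2 was also called without a filter on low counts, without Tet1KO C and without N1300T 81 B (adjusted p 0.00363 to 0.0363). Without Tet1KO C its log2 fold change was 1.56.

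The comparison of N1300T with Tet1KO asks what the changed Tet2 goes with on the Tet1 knockout. Pcdhga11, Pcdhgb8 and Pcdhga12 rose, all in a row along the gamma cluster, and Pcdhga10 fell. Of 23 members tested 4 were called, 17.4%, close to the 15.7% of all genes (7.69% higher and 8.04% lower). The median over members was 0.10, against 0.00 over all genes. With the replicate letter as a block, 5 members (21.7%) and 20.8% of all genes were called, and Pcdhgb6 was the member gained, as lower (-0.74, adjusted p 0.0432).

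Pcdhga12 (18:37765580-37841873) is the last A type of the cluster. It stood at 0.992, 1.03 and 1.33 CPM in Tet1KO, at 2.50, 3.03 and 3.00 CPM in N1300T 49 and at 2.88, 2.20 and 2.97 CPM in N1300T 81. All 6 N1300T libraries were above all 3 of Tet1KO. The log2 fold change was 1.29 ± 0.19 (adjusted p 1.36e-04), the largest rise among the members tested in this comparison.

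Pcdhga11 stood at 2.56, 3.90 and 4.18 CPM in N1300T 49 and at 3.97, 3.61 and 4.55 CPM in N1300T 81, all above its Tet1KO libraries. It rose by 0.91 ± 0.17 (adjusted p 0.00157). Pcdhgb8 stood at 0.814, 1.14 and 1.20 CPM in N1300T 49 and at 0.928, 0.808 and 1.23 CPM in N1300T 81. It too lay above Tet1KO in 6 of 6 libraries, and rose by 1.17 ± 0.27 (adjusted p 0.00605). These 3 rises were called in all 22 alternatives.

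Pcdhga10 (18:37747016-37841870), an A type that lies before Pcdhgb7 and Pcdhga11, went the other way. It stood at 1.67, 1.77 and 1.69 CPM in Tet1KO, at 0.814, 1.14 and 1.33 CPM in N1300T 49 and at 1.36, 0.864 and 1.21 CPM in N1300T 81. The groups did not overlap, and the log2 fold change was -0.62 ± 0.20 (adjusted p 0.0402). This call was lost in 12 of 22 alternatives, with adjusted p between 0.0521 and 0.108, among them the fit without each of the Tet1KO and DKO libraries in turn, without N1300T 49 A or B, and without N1300T 81 B. Pcdhgb7, between the gene that fell and those that rose, differed by -0.19 ± 0.17 (adjusted p 0.482). It stood at 2.92, 3.23 and 3.32 CPM in Tet1KO, at 2.69 to 2.79 CPM in N1300T 49 and at 1.97 to 3.87 CPM in N1300T 81.

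Pcdhgc3, which follows Pcdhga12, differed from Tet1KO by only -0.03 ± 0.08 (adjusted p 0.835). Pcdhgc4 differed by 0.26 ± 0.38 (adjusted p 0.710). Pcdhgc5, the last gene of the cluster, differed by -0.63 ± 0.25 (adjusted p 0.0986), with 0.474 to 1.03 CPM in N1300T and 0.744 to 1.22 CPM in Tet1KO, which overlapped.

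**Figure D3:**
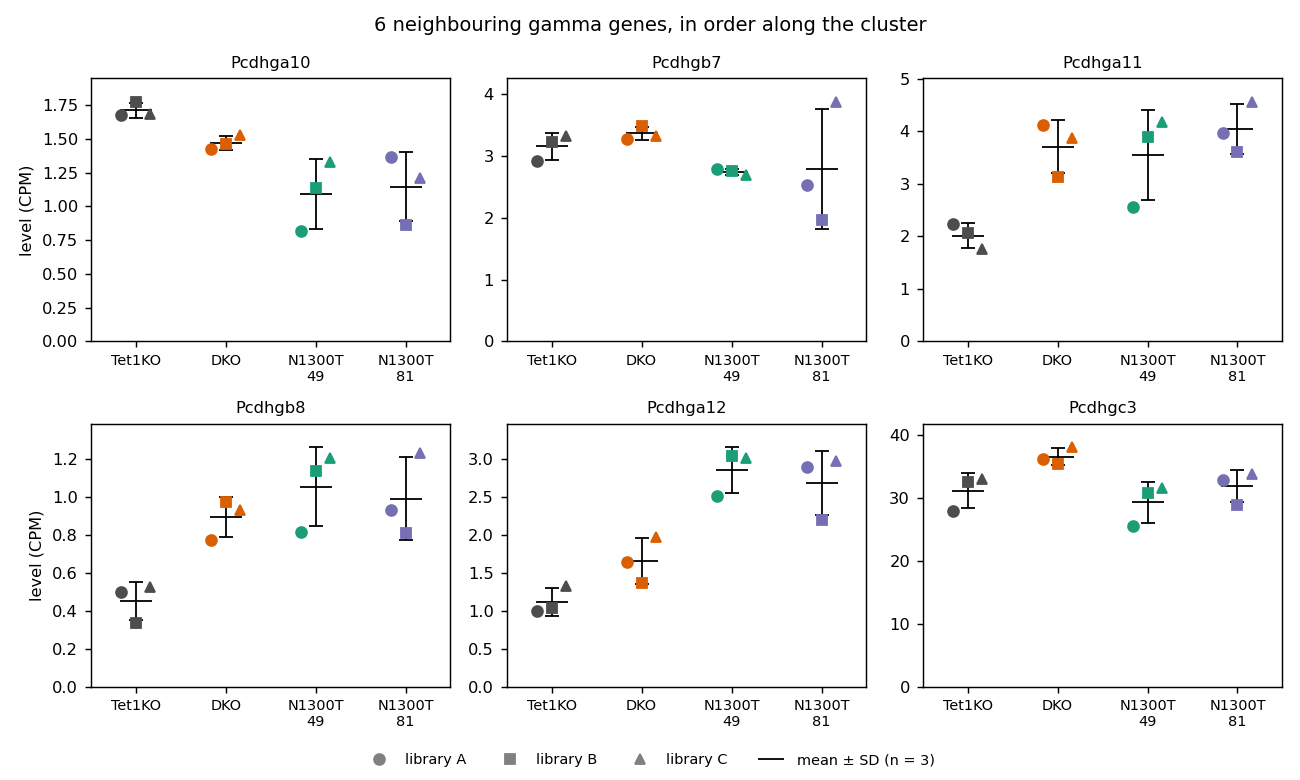
Level in CPM of Pcdhga10, Pcdhgb7, Pcdhga11, Pcdhgb8, Pcdhga12 and Pcdhgc3, which follow each other in the gamma cluster, in each library, with the mean and SD of 3 libraries. Pcdhga11 and Pcdhgb8 are higher in DKO and both N1300T preparations than in Tet1KO, and Pcdhga12 is highest in N1300T.

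N1300T against DKO compares the changed Tet2 with its loss. Pcdhga12 rose in N1300T by 0.73 ± 0.17 (adjusted p 0.0247), from 1.36 to 1.96 CPM in DKO to 2.20 to 3.03 CPM in N1300T, with no overlap. It was the only member called of 23 (4.35%), where 3.73% of all genes were called (1.70% higher and 2.02% lower). The call was lost without any of the DKO libraries (adjusted p 0.0677 to 0.131) and without N1300T 49 B (0.0541). Pcdhga11 and Pcdhgb8 were close in both groups, with log2 differences of 0.02 ± 0.16 (adjusted p 0.971) and 0.19 ± 0.23 (0.715).

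Most other members were lower in N1300T than in DKO without being called. The median log2 difference was -0.26, against 0.00 over all genes, and 18 of 23 were below 0 (50.5% of all genes were). Pcdhgc3 was lower in all 6 N1300T libraries than in all 3 of DKO, by 0.26 on the log2 scale (-0.26 ± 0.08, adjusted p 0.0668). It was called with library size in place of TMM factors, without a filter, with the replicate block, with DESeq2, without N1300T 49 C and without N1300T 81 C, at adjusted p between 0.0116 and 0.0494.

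**Figure D4:**
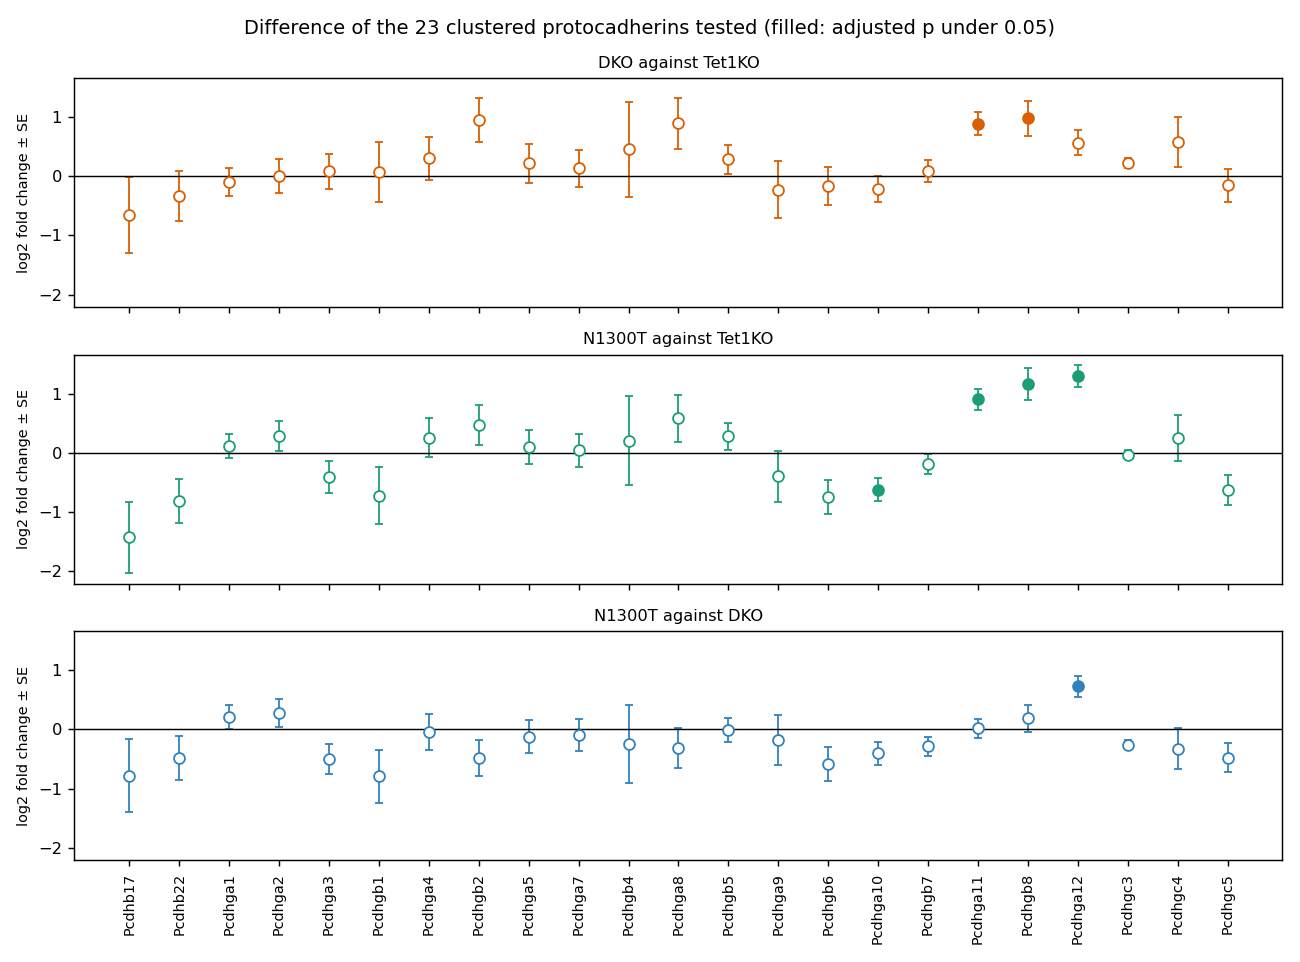
Log2 fold change with its SE for the 23 members tested, in order along the chromosome, in each comparison between genotypes. Filled points have an adjusted p under 0.05. They are 2 in DKO against Tet1KO, 4 in N1300T against Tet1KO and 1 in N1300T against DKO, all in the stretch from Pcdhga10 to Pcdhga12.

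The N1300T preparations, which share a genotype label, did not differ detectably in any member. None of 23 was called by edgeR's quasi-likelihood test, where 0.362% of all genes were, and DESeq2 called none. No member had an unadjusted p under 0.05 in the edgeR test, where 1201 of 16014 genes did. The differences of 49 against 81 were 0.08 ± 0.19 for Pcdhga12, -0.20 ± 0.18 for Pcdhga11, 0.08 ± 0.27 for Pcdhgb8 and -0.12 ± 0.09 for Pcdhgc3. Taken singly against Tet1KO, each preparation called Pcdhga11, Pcdhgb8 and Pcdhga12 as higher and none as lower. That is 13.0% of members. Of all genes, 10.9% were called for 49 (5.16% higher and 5.70% lower) and 12.2% for 81 (6.28% higher and 5.90% lower). Their log2 fold changes were 0.81, 1.21 and 1.34 in 49 and 1.01, 1.13 and 1.25 in 81. For 81 against Tet1KO, where same-lettered libraries deviated together, a fit with the replicate letter as a block was added after seeing the data. It called 6 members, the same 3 higher and Pcdhb17, Pcdhgb6 and Pcdhgc5 lower. That is 26.1% of members, and the same fit called 17.3% of all genes. In the main edgeR fit, without the block, the 3 lower members were not called (adjusted p 0.0681, 0.0674 and 0.0674). The block for 49 alone is not given here, so these 3 cannot be called particular to 81. Against DKO, Pcdhga12 was called in 49 (0.77 ± 0.19, adjusted p 0.0485) and not in 81 (0.69 ± 0.19, adjusted p 0.0688), with values that are nearly the same. Of all genes 2.29% were called in the former and 2.37% in the latter.

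The share of gamma counts taken by Pcdhga11, Pcdhgb8 and Pcdhga12, a grouping made after their values were seen and so not tested, was 7.74%, 6.66% and 6.34% in Tet1KO and 10.4%, 9.19% and 10.6% in DKO. It was 11.9%, 14.9% and 14% in N1300T 49 and 13.8%, 14% and 14% in N1300T 81. The means were 6.91 ± 0.735%, 10.07 ± 0.761%, 13.6 ± 1.55% and 13.9 ± 0.135% (SD, n = 3), and the ranges of Tet1KO, DKO and N1300T did not overlap. The other A and B types together gave 15.9 ± 2.55 CPM in Tet1KO, 17.6 ± 0.622 in DKO, 16.5 ± 2.53 in N1300T 49 and 14.7 ± 3.86 in N1300T 81, with overlapping libraries. Because the 3 genes were set apart by their values, the contrast with the others follows in part from that choice. The others include Pcdhga10, called as lower in N1300T against Tet1KO.

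Genes known to act on the clusters were examined from a list of 25 chromatin regulators, all of them tested. In DKO against Tet1KO 1 rose and 3 fell, and in N1300T against Tet1KO 1 rose and 4 fell, with list medians of -0.06 and -0.03. Over all genes 15.0% and 15.7% were called in these comparisons, so the list was called at close to the background rate in the first. Dnmt3a, a de novo DNA methyltransferase, fell in DKO (-0.79 ± 0.08, adjusted p 4.69e-06) and in N1300T (-0.63 ± 0.07, adjusted p 5.54e-06). Its levels were 74.9, 65.6 and 63.8 CPM in Tet1KO, 39.6, 40.4 and 38.2 in DKO and 38.8 to 49.9 in N1300T. Dnmt3b, the de novo enzyme that methylates protocadherin promoters in the embryo, rose in DKO (0.48 ± 0.11, adjusted p 0.00724), from 159.6, 154.1 and 208.2 CPM to 240.9, 244.6 and 241.6 CPM. In N1300T it differed by 0.19 ± 0.10 (adjusted p 0.190). The Dnmt3b call was lost without Tet1KO A (adjusted p 0.0535). Uhrf1, which guides maintenance methylation, fell in both (-0.25 ± 0.06 and -0.23 ± 0.05, adjusted p 0.00722 and 0.00470).

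Ctcf, the factor that binds protocadherin promoters and enhancers, fell in N1300T (-0.17 ± 0.05, adjusted p 0.0363) from 190.5 ± 9.81 to 169.8 ± 7.94 CPM, and was not called in DKO (-0.08 ± 0.06, adjusted p 0.436). Stag1, a cohesin subunit, fell in N1300T against Tet1KO (-0.26 ± 0.06, adjusted p 0.00345) and against DKO (-0.20 ± 0.06, adjusted p 0.0493), the single call of the list in the latter comparison. That last call was lost in 10 of 12 fits that left out a library (adjusted p 0.0528 to 0.336), all but those without Tet1KO B or N1300T 81 C. Rad21, another cohesin subunit, and Rest, a repressor of neuronal genes, were not called in any of the 3 comparisons. Smchd1 stood at 80.7 ± 6.23 CPM in Tet1KO, 82.5 ± 7.81 in DKO and 72.02 ± 2.73 in N1300T, not called (adjusted p 0.0949 against Tet1KO and 0.0912 against DKO). Zfp143, a factor found at CTCF-bound promoters, fell in DKO (-0.20 ± 0.06, adjusted p 0.0409). Ehmt2, a histone H3 lysine 9 methyltransferase, rose in N1300T (0.18 ± 0.05, adjusted p 0.0306). Of 12 fits that left out a library, 5 lost the Ctcf call (adjusted p 0.0593 to 0.200), 6 the Zfp143 call (0.0525 to 0.137) and 5 the Ehmt2 call (0.0503 to 0.161), each of the 3 without Tet1KO A among others. Whether any of these levels bears on the protocadherins was not tested.

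**Figure D5:**
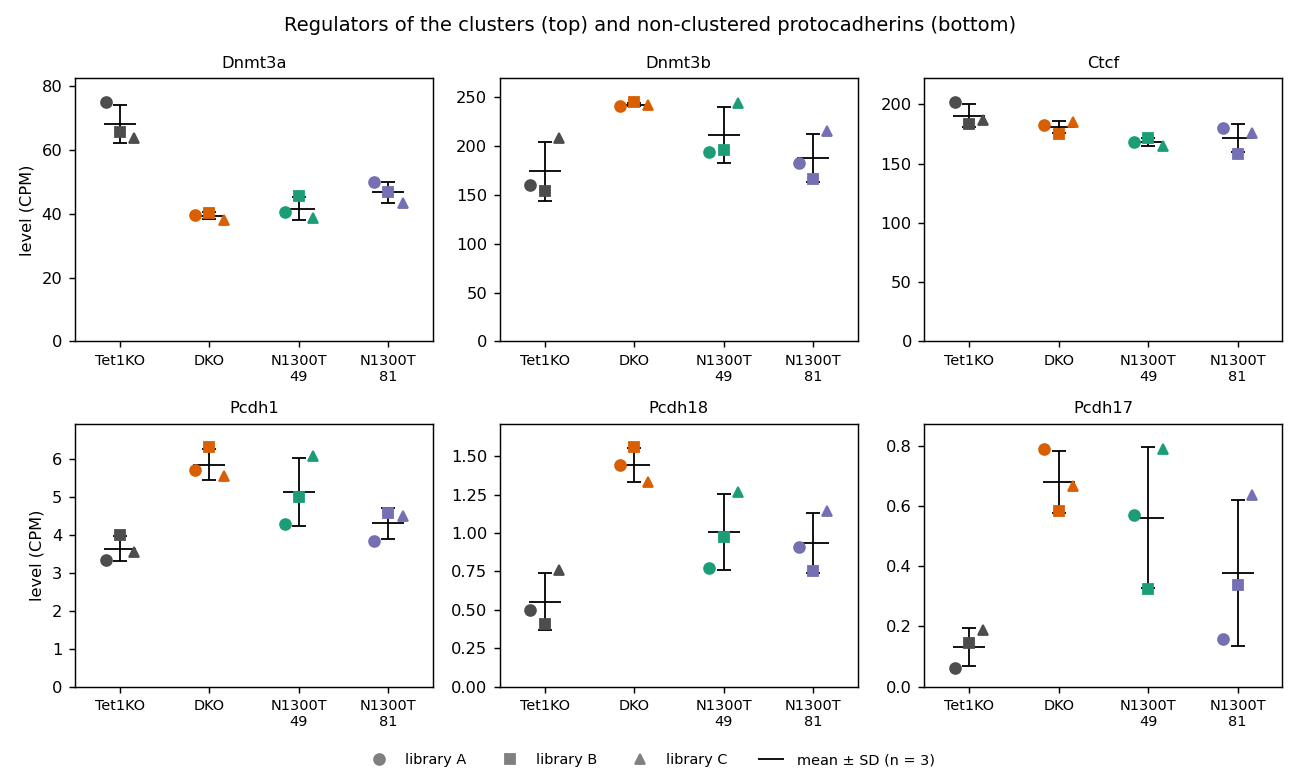
Level in CPM of the regulators Dnmt3a, Dnmt3b and Ctcf (top) and of the non-clustered protocadherins Pcdh1, Pcdh18 and Pcdh17 (bottom) in each library, with the mean and SD of 3 libraries. Dnmt3a is lower outside Tet1KO, and the bottom genes are highest on average in DKO.

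Of 25 partners in adhesion and signalling, 24 were tested. In DKO 2 rose and 2 fell, in N1300T against Tet1KO 2 rose and 5 fell, and none was called between N1300T and DKO. Over all genes 15.0%, 15.7% and 3.73% were called in these comparisons. Ptk2b, the kinase PYK2 that gamma and alpha protocadherins inhibit, rose in DKO (0.71 ± 0.08, adjusted p 1.99e-05) and in N1300T (0.53 ± 0.07, adjusted p 8.01e-05). Its levels were 19.4 ± 0.726 CPM in Tet1KO, 31.6 ± 0.438 in DKO and 28.2 ± 3.89 in N1300T. Brk1 and Cyfip1, subunits of the WAVE complex that protocadherin tails bind, fell in DKO (-0.39 ± 0.07 and -0.19 ± 0.05, adjusted p 0.00123 and 0.0222) and in N1300T (-0.25 ± 0.06 and -0.25 ± 0.05, adjusted p 0.00840 and 0.00114). Nckap1, another subunit, fell in N1300T (-0.17 ± 0.05, adjusted p 0.0283). Cdh2, N-cadherin, rose in DKO (0.52 ± 0.14, adjusted p 0.0157), and Abl1, a tyrosine kinase, rose in N1300T (0.23 ± 0.05, adjusted p 0.00434). Ctnna1, alpha-catenin, and the kinase Wnk1 also fell in N1300T (-0.17 ± 0.04 and -0.18 ± 0.05, adjusted p 0.0154 and 0.0300). Without Tet1KO A the calls of Cdh2 and Cyfip1 in DKO and of Brk1, Nckap1, Ctnna1 and Wnk1 in N1300T were all lost (adjusted p 0.0501 or above). Cdh2 was also lost without Tet1KO B or DKO C, and Cyfip1 in DKO without any of the DKO libraries. In N1300T Nckap1 was lost without 49 C or 81 C, and Wnk1 without Tet1KO B, DKO A or 81 A.

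Protocadherins and related cadherins outside the clusters were read the same way. Of 21 listed, 12 were tested and 12 were under 1 CPM in every library. In DKO 4 rose and 1 fell, in N1300T against Tet1KO 1 rose, and none was called between N1300T and DKO, with medians of 0.17, 0.06 and -0.18. Over all genes 15.0%, 15.7% and 3.73% were called in these comparisons. Pcdh1 rose in DKO from 3.35, 3.996 and 3.56 CPM to 5.71, 6.30 and 5.54 CPM (0.68 ± 0.14, adjusted p 0.00369), and Pcdh18 from 0.496, 0.407 and 0.759 CPM to 1.44, 1.56 and 1.33 CPM (1.37 ± 0.29, adjusted p 0.00349). Dchs1, the large cadherin that binds Fat4, rose as well (1.05 ± 0.34, adjusted p 0.0477), a call lost in 10 of 12 fits that left out a library (adjusted p 0.0515 to 0.170). Cdhr1, a cadherin of photoreceptors, fell (-0.89 ± 0.21, adjusted p 0.00869). Pcdh17 rose in DKO (2.30 ± 0.53, adjusted p 0.00654) and in N1300T (1.72 ± 0.50, adjusted p 0.0265), from 0.132 ± 0.0647 CPM in Tet1KO to 0.681 ± 0.104 and 0.470 ± 0.235 CPM. The N1300T call was lost in 6 alternatives, among them the fits without Tet1KO A, Tet1KO B, N1300T 49 C or N1300T 81 C (adjusted p 0.0521 to 0.135).

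Genes around the clusters were called in both directions. Of 27 genes beside and between the clusters, all tested, 2 rose and 4 fell in DKO and 1 rose and 2 fell in N1300T against Tet1KO. None was called between N1300T and DKO, and the medians were -0.06, -0.05 and 0.01. Over all genes 15.0%, 15.7% and 3.73% were called in these comparisons. Slc25a2 and Taf7, which lie between the beta and gamma clusters, and Diaph1, just past the gamma cluster, were not called in any of the 3. These were named for their position, outside the rule for named genes. Taf7, a subunit of the basal factor TFIID, stood at 157.1 ± 10.3 CPM in Tet1KO and 150.7 ± 3.85 in DKO. Arap3, a regulator of small GTPases, rose in both (0.90 ± 0.16 and 0.98 ± 0.14, adjusted p 9.59e-04 and 1.48e-04). Hbegf, an EGF receptor ligand, fell in both (-0.44 ± 0.10 and -0.73 ± 0.08, adjusted p 0.00526 and 1.61e-05). Spry4, an inhibitor of receptor signalling, fell in both (-0.42 ± 0.13 and -0.64 ± 0.11, adjusted p 0.0360 and 6.80e-04). Tmco6 fell in DKO (-0.38 ± 0.09, adjusted p 0.00877). In DKO the Spry4 call was lost without Tet1KO A, Tet1KO C or any DKO library (adjusted p 0.0511 to 0.163), and the Tmco6 call without DKO A or DKO C (0.0561 and 0.0576). Over the 368 other genes tested of chromosome 18 the medians were -0.02, 0.00 and 0.00.

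Markers of cell type were read beside these results. Of 12 embryonic stem cell markers all were counted, with sums of 7461 to 8578 CPM over all libraries, and Pou5f1 and Nanog, core pluripotency factors, were not called. Tfcp2l1 and Tbx3, markers of the naive state, fell in DKO (-0.30 ± 0.06 and -0.33 ± 0.09, adjusted p 0.00220 and 0.0195). They were the only ones of the 12 called in DKO, and none was called in N1300T against Tet1KO or DKO. Over all genes 15.0% were called in DKO and 15.7% in N1300T, each against Tet1KO. The Tbx3 call was lost without Tet1KO B or any DKO library (adjusted p 0.0546 to 0.109), and its log2 fold change ran from -0.42 to -0.21 over the fits that left out a library. Of 20 neural markers none was at 0 in all libraries, 10 were under 1 CPM in every library and 14 were tested. Tubb3, a neuronal tubulin, was not called. The sums were 298.6 to 342.6 CPM in Tet1KO, 287.9 to 308.1 in DKO and 288.5 to 336.2 in N1300T, which overlapped. Pax6 rose in DKO and N1300T (2.80 ± 0.51 and 1.81 ± 0.50, adjusted p 0.00118 and 0.0187), Neurod1 rose in DKO (0.99 ± 0.24, adjusted p 0.00952), Nes rose in N1300T (0.27 ± 0.06, adjusted p 0.00518) and Ncam1 fell in both (-0.55 ± 0.13 and -0.41 ± 0.11, adjusted p 0.00792 and 0.0161). In N1300T the Pax6 call was lost without Tet1KO A or Tet1KO B (adjusted p 0.0793 to 0.0901) and the Ncam1 call without Tet1KO C (0.0697), and in DKO the Neurod1 call without Tet1KO A (0.0566).

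Of 18 fibroblast markers, which feeder cells would carry, none was at 0 in all libraries, 8 were under 1 CPM in every library and 12 were tested. Their sums were 53.9 to 55.7 CPM in Tet1KO, 70.6 to 77.9 in DKO and 62.02 to 75.2 in N1300T, so Tet1KO was lowest, as it was for Pcdhga11 and Pcdhgb8. In DKO 5 of the 12 rose and 7 were not called, and in N1300T against Tet1KO 5 rose and 1 fell. Over all genes 15.0% and 15.7% were called in these comparisons. The one that fell was Pdgfrb, a growth factor receptor, at 4.28, 4.93 and 4.20 CPM in Tet1KO, 2.44 to 2.77 CPM in N1300T 49 and 2.92 to 5.15 CPM in N1300T 81 (-0.49 ± 0.15, adjusted p 0.0384). That call was lost in 8 of 12 fits that left out a library (adjusted p 0.0516 to 0.142) and with N1300T 81 alone (0.572). Col1a2, a chain of type I collagen, stood at 0.369, 0.329 and 0.321 CPM on average in Tet1KO, DKO and N1300T and was not called. Dcn, Postn and Lum, matrix proteins of fibroblasts, averaged under 0.1 CPM in each of these groups. Fbln2, a matrix protein, rose in both (0.88 ± 0.13 and 0.96 ± 0.12, adjusted p 1.95e-04 and 2.42e-05), as did Twist1, a mesenchymal transcription factor (0.90 ± 0.24 and 0.89 ± 0.21, adjusted p 0.0154 and 0.00803). Mmp2, a matrix protease, rose in both (0.82 ± 0.11 and 0.38 ± 0.10, adjusted p 6.64e-05 and 0.0120) and was lower in N1300T than in DKO (-0.44 ± 0.09, adjusted p 0.0114), as was Acta2, smooth muscle actin (-1.51 ± 0.37, adjusted p 0.0322). The Acta2 call was lost without any of the DKO libraries or N1300T 81 A (adjusted p 0.0667 to 0.121), and the Mmp2 call against DKO without DKO B or DKO C (0.0554 and 0.0959). Against Tet1KO, Mmp2 in N1300T was lost without Tet1KO B (0.0748). Twist1 was lost in DKO without Tet1KO A, Tet1KO B, DKO A or DKO C (0.0524 to 0.0777), and in N1300T without Tet1KO B (0.0517). Their part in the protocadherin results was not tested.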

How the data were processed

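The deposited values are raw counts of reads per gene, in a single table with 35976 symbols and 12 libraries. The submitters' processing notes name mm10 as the build and DESeq2 as a tool. The sources used here do not give the aligner, counter, annotation or strand use. Low counts were mostly even (among members 78 values of 2 and 29 of 4, against 6 of 1 and 2 of 3), so both mates may have been counted, and counting error is then understated.

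One fit of all 12 libraries with edgeR 4.0.16 (R 4.3.3, limma 3.58.1) used TMM factors, filterByExpr by group and 2-sided quasi-likelihood tests, with p-values adjusted over 16014 genes. N1300T was the equal-weight mean of both preparations. CPM were computed from library sizes times TMM factors, and shares from counts. Libraries of a group were not identical. Alternatives were RLE factors or library size alone, other filters, halved counts, only the groups compared, a replicate block, DESeq2 1.42.0 and each library left out. The fit was tested on simulated data.

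Positions came from RefSeq's GRCm38.p6 table, and exon lengths and 50-base words from GENCODE M21 transcripts. Own exon length leaves out bases shared with another gene of the same strand. Same-lettered libraries of Tet1KO and N1300T 81 deviated together (correlations 0.132, 0.284 and 0.312 of deviations from group means). No other pair of groups had all 3 correlations over 0.1, though Tet1KO with N1300T 49 had 0.0843, 0.197 and 0.156.

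Members named were those called, the 3 highest of each cluster and the C types. From each list up to 3 called genes per comparison were named by adjusted p, along with Ctcf, Rad21, Smchd1, Dnmt3a, Dnmt3b, Rest, Pou5f1, Nanog, Tet1 and Tet2. Others named were chosen after their values were seen. The members and lists were chosen with earlier results of these data known.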

Additional observations from a re-analysis of the deposited data

How the results depend on the processing

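The count of clustered protocadherins called in DKO against Tet1KO was 2. It was 4 with a replicate block and 4 with only the groups compared, and 1 to 3 with each library left out. With the block that was 17.4% of members, where 20.5% of all genes were called. With only the groups compared, 2893 of all genes were called, against 2399 in the main fit. In N1300T against Tet1KO the count was 4, 5 with the replicate block (3 higher and 2 lower, with Pcdhgb6 gained) and 3 to 5 with each library left out. N1300T 81 alone with the block, an alternative chosen after seeing the data, called 6 of 23, 26.1%, and 2770 of all genes, 17.3%. In N1300T against DKO the count was 1, and 2 with library size in place of TMM, without a filter, with the replicate block or with DESeq2. These settings called 667, 1481, 1497 and 1070 of all genes, against 597 in the main fit. The count of members was 0 with N1300T 81 alone, and 0 to 2 with each library left out. Between 49 and 81 it was 0 in every setting. The summed alpha level, DKO against Tet1KO, had a log2 ratio of 0.71, and -0.10 to 1.00 with each library left out, with -0.10 without DKO 41 B. No called difference of a named member changed sign in these alternatives. Among 57 calls of genes of the lists, 1189 alternatives gave 1040 with the same call, 149 with the call lost and 0 reversed. Besides libraries left out and single preparations, calls were lost with DESeq2 for Acta2 (N1300T against DKO), with library size in place of TMM for Cyfip1, Spry4 and Zfp143 in DKO, without a filter for Zfp143 and Rnf14 in DKO, and with only the groups compared for Ctcf, Pcdh17 and Pdgfrb in N1300T. Over all genes the block called 3281, 3323, 1497 and 105, against 2399, 2520, 597 and 58 without it. Correlations were over 0.1 for all 3 letters only between Tet1KO and N1300T 81. Tet1KO with 49 had 0.0843, 0.197 and 0.156 for A, B and C, and 49 with 81 had 0.0662, 0.2355 and 0.228. Whether 49 is also paired with Tet1KO by letter is thus not settled, and the main fit has no block. As a hint from the data, all 6 libraries correlated best with their own letter in Tet1KO and 49, in Tet1KO and 81 and in 49 and 81, but 2, 0 and 2 of 6 in the pairs with DKO. Members that did not pass the filter on low counts were not tested. These were all alpha genes, all beta genes other than Pcdhb17 and Pcdhb22, and Pcdhga6.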
